A study of Mus musculus with 31 samples.

Results

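Genes that mark the layers and projection neurons of the cerebral cortex were followed in RNA taken from Drd1a- or Drd2-expressing cells of mouse cortex and striatum. The members were 39 listed genes, and a feature of the array counted as a member where its only gene symbol, or its current symbol through the Entrez identifier, was on the list. Of the 39, 36 were measured among the 16345 features: 18 deep-layer genes, 10 upper-layer genes and 8 genes of projection neurons at large. Etv1 and Cplx3 had a feature only in common with another gene and were not used, and Mdga1 was named by no feature. The RNA came from translating ribosome affinity purification (TRAP), in which tagged ribosomes of a marked cell type are pulled down with the messages they carry. It was taken from entire cortex or striatum and put on 31 mouse exon arrays. The 8 groups combined an age (2 years, called old, or 6 weeks, called young) with a region and a cell type. Each had 4 arrays, save young striatum Drd1a with 3. The groups were old and young cortex Drd1a, old and young cortex Drd2, old and young striatum Drd1a, and old and young striatum Drd2. Not given in the sources used here are the transgene that tags the ribosomes, the strain, the sex and any pooling of animals. Nothing says that replicates came from separate mice, so the p-values reflect how these samples vary, which may be technical.

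Excitatory projection neurons of the cortex arise in order, deep layers first, and each class is set up by transcription factors that repress one another's programs. Tbr1 marks layer 6 corticothalamic neurons, Fezf2 and Bcl11b the layer 5 neurons that project below the cortex, and Cux1, Cux2 and Rorb the neurons of the upper layers. Vesicular glutamate transporters such as Slc17a7 mark these neurons as glutamatergic, whereas the projection neurons of the striatum release GABA and are split by Drd1 and Drd2 into the direct and the indirect pathway. Both receptors are also made by subsets of cortical neurons.

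Each deposited value says how far a gene lies, on the log2 scale, from its median across all arrays. A value of 0 is therefore that gene's middle array, levels of different genes cannot be compared, and whether a gene is absent cannot be read. Differences are log2 differences with their standard error (SE) from limma. A gene was called where its Benjamini-Hochberg adjusted p, taken across the 16345 features, fell below 0.05 with a fold of 1.2 or more, both limits coming from the series' design text. The receptor genes followed the labels in both regions. In cortex, Drd2 lay at -3.84 ± 0.15 in old Drd1a arrays and -4.55 ± 0.24 in young Drd1a arrays, against 0.20 ± 0.19 in old Drd2 arrays and 0.21 ± 0.15 in young Drd2 arrays (SD, n = 4 each). In striatum Drd2 arrays Drd1 lay at -0.34 ± 0.24 in old mice, against -2.75 ± 0.27 in young mice (SD, n = 4 each). In cortex Drd2 arrays Drd1 lay at -1.18 ± 0.50 in old mice, against -2.91 ± 0.031 in young mice (SD, n = 4 each). In striatum Drd1a arrays Drd1 read 1.62 to 1.86 in old and 1.56 to 1.74 in young mice. In cortex Drd1a arrays it read 0.67 to 1.19 in old and 0.07 to 0.78 in young mice. The Drd1 gap between the cell types was thus smaller in old mice, and its part in the cell type comparisons was not tested. In 4 members 1 array, picked after the values were seen, stood apart. In replicate 3 of old striatum Drd1a, Neurod6 lay at -0.997, Nr4a2 at -0.997, Slc17a7 at -0.63 and Tbr1 at -0.34, each the highest value of the 15 striatal arrays. Values without this array stand beside the results that it moved most. The array weights of limma, lower for more variable arrays, were 1.13 for replicate 3 and 0.17 for replicate 2 of the same group. They were also low, at 0.26 and 0.30, for replicate 1 of old cortex Drd2 and replicate 4 of old cortex Drd1a. Replicate 3 was thus not the most variable array.

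**Figure D1:**
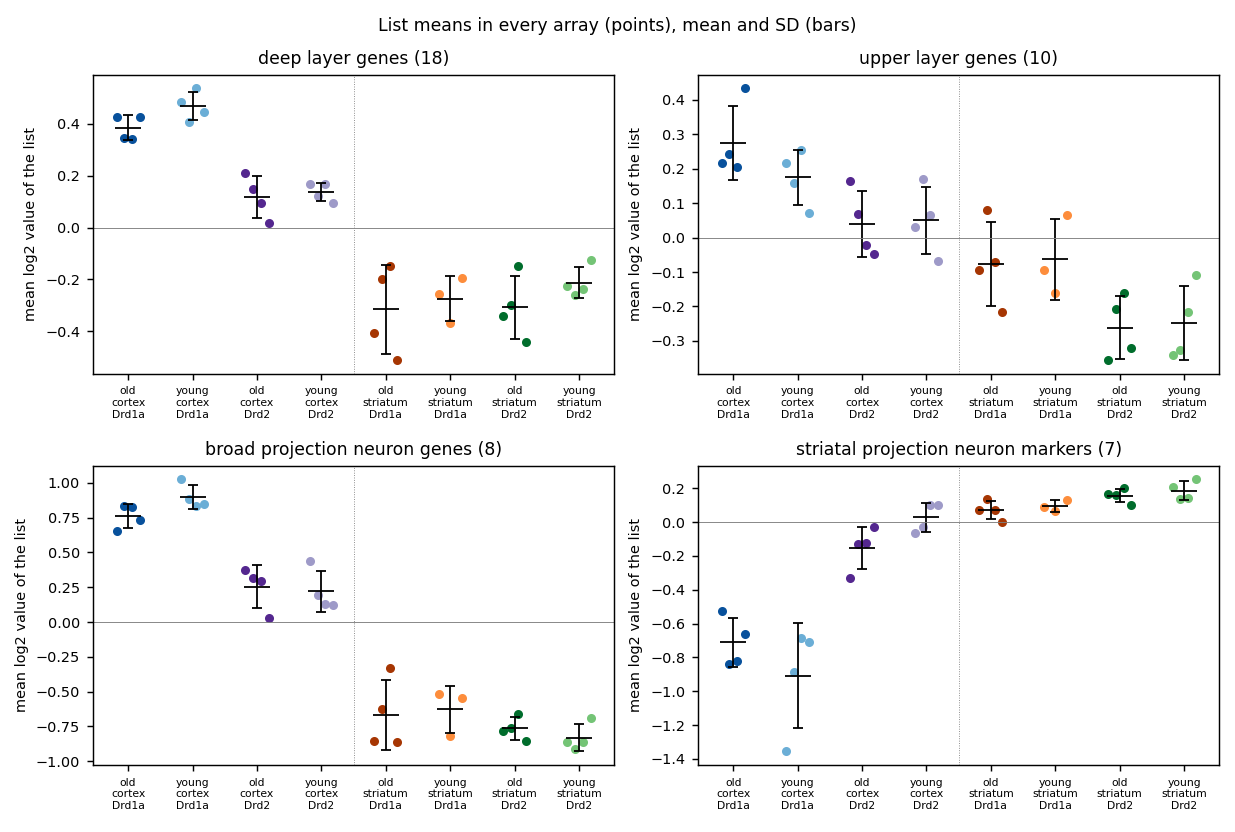
Mean log2 value over the measured genes of 4 lists (y axes) in each of the 31 arrays (points) by group (x axes), with the group mean and SD (bars). The deep-layer list lay above 0 in all 16 cortical arrays and below 0 in all 15 striatal arrays, and the striatal projection neuron markers lay lowest in cortex Drd1a arrays, at -0.84 to -0.53 in old and -1.36 to -0.69 in young mice.

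The first comparison asked how the layer genes differed between cortex and striatum within a cell type and age. In all 4 such comparisons 11 of the 36 members were called higher in cortex: the deep-layer genes Fezf2, Nr4a2, Tbr1 and Tshz2, the upper-layer genes Lhx2, Rasgrf2 and Rorb, and the broad genes Mef2c, Neurod6, Slc17a6 and Slc17a7. Bcl11b and Lmo3 were called lower in cortex in all 4, 10 members were called in some of the 4 and in 1 direction, and 13 were called in none. How many of all features were called in all 4 was not counted, so these overlaps have no background beside them. In old Drd1a cells 18 members were called higher and 4 lower in cortex, where 8.80% and 7.32% of all features were. In young Drd1a cells the counts were 16 and 4, where 9.10% and 9.94% of all features were called higher and lower. In old Drd2 cells 12 members were called higher and 2 lower, beside 6.31% and 5.04% of all features, and in young Drd2 cells also 12 and 2, beside 4.57% and 3.01%. Without replicate 3 of old striatum Drd1a the old Drd1a comparison called 23 members, Ldb2 joining the 22. By list, 8 deep-layer, 4 upper-layer and 6 broad genes were higher in cortex in old Drd1a cells, 7, 4 and 5 in young Drd1a, 5, 3 and 4 in old Drd2, and 4, 3 and 5 in young Drd2 cells. The median member lay at 0.37 in old Drd1a cells, 0.25 in young Drd1a cells, 0.09 in old Drd2 cells and 0.12 in young Drd2 cells, where the median of all features was 0.03, -0.06, -0.05 and -0.04 in the same order. In RNA pooled from many cells, fewer cells of a type and less RNA per cell cannot be told apart.

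The largest difference of any member was that of a broad gene, Neurod6. Neurod6, a basic helix-loop-helix factor of cortical and hippocampal pyramidal neurons, had cortical values of 1.56, 2.13, 2.18 and 1.29 in old and 2.47, 2.29, 2.28 and 2.54 in young Drd1a arrays. Neurod6 in cortex Drd2 arrays read 0.01, 0.79, 1.03 and 0 in old and 1.001, 0.43, 0.70 and 0.24 in young mice. Its striatal values were -3.17, -2.99, -0.997 and -3.08 in old Drd1a arrays, -1.49, -3.03 and -2.51 in young Drd1a arrays, -2.86, -3.24, -2.84 and -3.22 in old Drd2 arrays and -2.98, -2.85, -3.04 and -2.42 in young Drd2 arrays. Every cortical array lay above every striatal array. The cortex minus striatum difference was 4.35 ± 0.35 in old Drd1a cells, 4.74 ± 0.38 in young Drd1a cells, 3.499 ± 0.35 in old Drd2 cells and 3.41 ± 0.35 in young Drd2 cells. In the same order this is 20.4-, 26.7-, 11.3- and 10.7-fold (adjusted p from 1.32e-10 to 8.42e-08). Without replicate 3 of old striatum Drd1a the old Drd1a difference was 4.87 ± 0.28. Slc17a7, the vesicular glutamate transporter VGLUT1 of cortical pyramidal neurons, had cortical values of 1.55, 1.84, 1.88 and 1.76 in old and 2.20, 2.01, 1.98 and 2.17 in young Drd1a arrays. Slc17a7 in cortex Drd2 arrays read 0.86, 1.03, 0.75 and 0 in old and 0.96, 0.72, 0.35 and 0.55 in young mice. In striatum it stood at -1.55, -1.41, -0.63 and -1.53 in old Drd1a arrays, -0.91, -1.59 and -0.93 in young Drd1a arrays, -1.82, -1.44, -1.70 and -1.73 in old Drd2 arrays and -1.75, -1.84, -1.55 and -1.62 in young Drd2 arrays. The regions did not overlap for Slc17a7 either, with a difference of 3.03 ± 0.19 in old Drd1a cells, 3.24 ± 0.21 in young Drd1a cells, 2.33 ± 0.19 in old Drd2 cells and 2.34 ± 0.19 in young Drd2 cells, and of 3.25 ± 0.18 in old Drd1a cells without the array that stood apart. Slc17a6, the VGLUT2 transporter best known from thalamus and brainstem and also made in some cortical neurons, had cortical values of 0.91, 0.95, 1.503 and 0.72 in old and 1.57, 1.52, 1.18 and 1.29 in young Drd1a arrays. Slc17a6 in cortex Drd2 arrays read 0.93, 0.15, 0 and 0.24 in old and 0.70, 0.15, 0.09 and 0.47 in young mice. For this gene the striatal arrays read -0.98, -0.64, -0.56 and -1.15 in old Drd1a arrays, -1.03, -0.83 and -0.62 in young Drd1a arrays, -0.94, -0.998, -0.90 and -0.91 in old Drd2 arrays and -0.95, -0.90, -1.01 and -0.91 in young Drd2 arrays. Here too every cortical array was above every striatal one, by 1.85 ± 0.17 in old Drd1a cells, 2.22 ± 0.18 in young Drd1a cells, 1.27 ± 0.17 in old Drd2 cells and 1.30 ± 0.17 in young Drd2 cells.

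Of the other broad genes, Mef2c, an activity-regulated transcription factor of excitatory neurons, differed by 0.76 ± 0.11 in old Drd1a cells, 0.85 ± 0.12 in young Drd1a cells, 0.73 ± 0.11 in old Drd2 cells and 0.80 ± 0.11 in young Drd2 cells, and all 4 differences were called. Nptx1, a secreted pentraxin that gathers AMPA receptors at synapses, was called at 1.25 ± 0.14 in old Drd1a cells, 1.36 ± 0.16 in young Drd1a cells and 0.48 ± 0.14 in young Drd2 cells, while it stood at 0.41 ± 0.14 in old Drd2 cells without a call (adjusted p = 0.0575). Its call in young Drd2 cells (adjusted p = 0.0346) was lost when any 1 of 7 of the 8 arrays was left out, the exception being replicate 4 of young striatum Drd2. Neurod1, a relative of Neurod6 that acts early in neuronal differentiation, was called only in old Drd1a cells, at 0.55 ± 0.14, and ran from 0.24 to 0.40 in the other 3 comparisons. Lmo3, a LIM-only cofactor, ran the other way: it was lower in every cortical array than in any striatal array, with differences of -0.40 ± 0.057 in old Drd1a cells, -0.34 ± 0.062 in young Drd1a cells, -0.38 ± 0.057 in old Drd2 cells and -0.33 ± 0.057 in young Drd2 cells. Neurod2 was called in none of the 4.

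Large regional differences among the deep-layer genes lay in factors of layer 6 and layer 5. Tbr1, the T-box factor of layer 6 neurons, had cortical values of 1.71, 1.999, 1.90 and 1.62 in old and 2.13, 1.91, 2.05 and 1.99 in young Drd1a arrays. Tbr1 in cortex Drd2 arrays read 1.26, 1.07, 0.62 and 0 in old and 0.79, 0.34, 0.32 and 0.39 in young mice. Across the striatal arrays Tbr1 read -1.78, -2.004, -0.34 and -1.84 in old Drd1a arrays, -1.69, -2.36 and -1.62 in young Drd1a arrays, -2.09, -2.11, -1.95 and -2.27 in old Drd2 arrays and -1.82, -2.36, -1.89 and -1.56 in young Drd2 arrays. The cortical arrays all lay above the striatal ones, and the difference was 3.30 ± 0.26 in old Drd1a cells, 3.91 ± 0.28 in young Drd1a cells, 2.84 ± 0.26 in old Drd2 cells and 2.37 ± 0.26 in young Drd2 cells, with adjusted p from 2.43e-11 to 2.95e-07. Leaving out replicate 3 of old striatum Drd1a gave 3.68 ± 0.21 in old Drd1a cells. Nr4a2, a nuclear receptor of layer 6b and the claustrum that also marks midbrain dopamine neurons, had cortical values of 1.56, 1.69, 1.86 and 1.39 in old and 2.14, 1.96, 1.83 and 1.84 in young Drd1a arrays. Nr4a2 in cortex Drd2 arrays read 0.91, 0.76, 0.59 and 0.06 in old and 0.97, 0.41, 0.32 and 0 in young mice. Striatal Nr4a2 values were -2.63, -2.87, -0.997 and -3.44 in old Drd1a arrays, -1.71, -3.09 and -2.43 in young Drd1a arrays, -2.74, -3.05, -2.88 and -2.84 in old Drd2 arrays and -2.28, -2.94, -2.35 and -2.59 in young Drd2 arrays. The 2 regions were apart by 4.11 ± 0.32 in old Drd1a cells, 4.35 ± 0.35 in young Drd1a cells, 3.46 ± 0.32 in old Drd2 cells and 2.96 ± 0.32 in young Drd2 cells, again without overlap, and by 4.60 ± 0.25 in old Drd1a cells without the array that stood apart. Fezf2, the zinc finger factor that specifies layer 5 subcerebral neurons, had cortical values of 0.74, 1.04, 0.73 and 0.99 in old and 1.32, 1.31, 1.49 and 1.39 in young Drd1a arrays. Fezf2 in cortex Drd2 arrays read 0.67, 0.85, 0.34 and 0 in old and 0.34, 0.18, 0.10 and 0.30 in young mice. In the striatal arrays Fezf2 read -0.51, -0.06, -0.27 and -0.62 in old Drd1a arrays, -0.38, -0.47 and -0.13 in young Drd1a arrays, -0.62, -0.37, -0.12 and -0.71 in old Drd2 arrays and -0.46, -0.64, -0.66 and -0.17 in young Drd2 arrays. Its regional difference was smaller, at 1.24 ± 0.15 in old Drd1a cells, 1.71 ± 0.16 in young Drd1a cells, 0.92 ± 0.15 in old Drd2 cells and 0.71 ± 0.15 in young Drd2 cells, and the 2 sets of arrays did not overlap.

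Tshz2, a homeobox gene of layer 5 and 6 near-projecting neurons, was the fourth deep-layer gene called higher in cortex in every comparison, by 0.86 ± 0.13 in old Drd1a cells, 0.75 ± 0.14 in young Drd1a cells, 0.49 ± 0.13 in old Drd2 cells and 0.54 ± 0.13 in young Drd2 cells. Its call in old Drd2 cells was lost without replicate 1 of old cortex Drd2 (adjusted p = 0.0728). Sox5, which times the production of deep-layer neurons in order, was called in 3 comparisons, at 1.24 ± 0.14 in old Drd1a, 1.35 ± 0.15 in young Drd1a and 0.67 ± 0.14 in old Drd2 cells, and stood at 0.40 ± 0.14 in young Drd2 cells (adjusted p = 0.0685). Nxph3, a neurexin ligand, and Ccn2, a matrix-associated growth factor, are both known from layer 6b and were called in Drd1a cells at both ages and in Drd2 cells at neither. Nxph3 differed by 1.46 ± 0.16 in old Drd1a cells, 1.82 ± 0.17 in young Drd1a cells, 0.17 ± 0.16 in old Drd2 cells and 0.09 ± 0.16 in young Drd2 cells. Ccn2 differed by 1.42 ± 0.14 in old Drd1a cells, 1.30 ± 0.15 in young Drd1a cells, 0.27 ± 0.14 in old Drd2 cells and 0.24 ± 0.14 in young Drd2 cells. Ntsr1, the neurotensin receptor of layer 6 corticothalamic neurons, passed in old Drd1a cells alone (0.38 ± 0.11, adjusted p = 0.0119), a call lost without replicate 3 of old cortex Drd1a or replicate 4 of old striatum Drd1a (adjusted p up to 0.0699). Lower in cortex was Bcl11b, a zinc finger factor of layer 5 neurons that striatal projection neurons share, with differences of -0.50 ± 0.10 in old Drd1a cells, -0.76 ± 0.11 in young Drd1a cells, -0.47 ± 0.10 in old Drd2 cells and -0.37 ± 0.10 in young Drd2 cells. Syt6, a synaptotagmin of layer 6, was lower in cortex in Drd1a cells, with differences of -0.55 ± 0.095 in old and -0.68 ± 0.10 in young mice. The Bcl11b call in young Drd2 cells was lost without replicate 1 of young cortex Drd2 or replicates 2 or 4 of young striatum Drd2 (adjusted p up to 0.106). Crym, a thyroid hormone-binding protein, was lower in cortex in old Drd1a cells (-0.69 ± 0.14) and was not called in the other 3, where it ran from -0.35 to 0.37. The remaining 7 deep-layer genes (Deptor, Ldb2, Nxph4, Pcp4, Tle4, Trib2 and Vat1l) were called in none of the 4 regional comparisons.

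Among the upper-layer genes Rasgrf2 and Lhx2 had the largest regional differences. Rasgrf2, a calcium-responsive Ras exchange factor of layers 2 and 3, had cortical values of 1.02, 1.04, 0.67 and 0.87 in old and 0.56, 0.58, 0.50 and 0.47 in young Drd1a arrays. Rasgrf2 in cortex Drd2 arrays read 1.38, 0.69, 0.46 and 0.15 in old and 0.32, 0.20, -0.10 and -0.28 in young mice. The striatal arrays gave 0, -0.40, 0.04 and -0.23 in old Drd1a arrays, -0.54, -0.53 and -0.19 in young Drd1a arrays, -1.45, -1.12, -1.72 and -0.94 in old Drd2 arrays and -2.33, -2.36, -1.18 and -1.91 in young Drd2 arrays. The striatal Drd2 arrays held the lowest values and the old cortex Drd2 arrays were widely spread, but within each cell type and age the regions did not overlap. Rasgrf2 was higher in cortex by 1.05 ± 0.22 in old Drd1a cells, 0.95 ± 0.24 in young Drd1a cells, 1.98 ± 0.22 in old Drd2 cells and 1.98 ± 0.22 in young Drd2 cells. Lhx2, a LIM homeobox selector of cortical identity, differed by 1.27 ± 0.14 in old Drd1a cells, 1.31 ± 0.15 in young Drd1a cells, 0.60 ± 0.14 in old Drd2 cells and 0.89 ± 0.14 in young Drd2 cells. Rorb, the nuclear receptor of layer 4, differed by 0.77 ± 0.098 in old Drd1a cells, 0.87 ± 0.11 in young Drd1a cells, 0.65 ± 0.098 in old Drd2 cells and 0.39 ± 0.098 in young Drd2 cells. For both genes every cortical array lay above every striatal array. Cux2, a homeobox gene of layers 2 to 4, was called in Drd1a cells, at 0.44 ± 0.11 in old and 0.40 ± 0.12 in young mice, but the young call was lost without replicate 1 or 2 of young striatum Drd1a (adjusted p up to 0.0863). Inhba, which encodes the activin A subunit, was lower in cortex in young Drd1a cells (-0.88 ± 0.27, adjusted p = 0.0187), a call lost without replicate 2 of young cortex Drd1a or replicates 1 or 3 of young striatum Drd1a (adjusted p up to 0.0698). Cux1, Lmo4, Pou3f1, Pou3f2 and Pou3f3 were called in none of the 4.

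**Figure D2:**
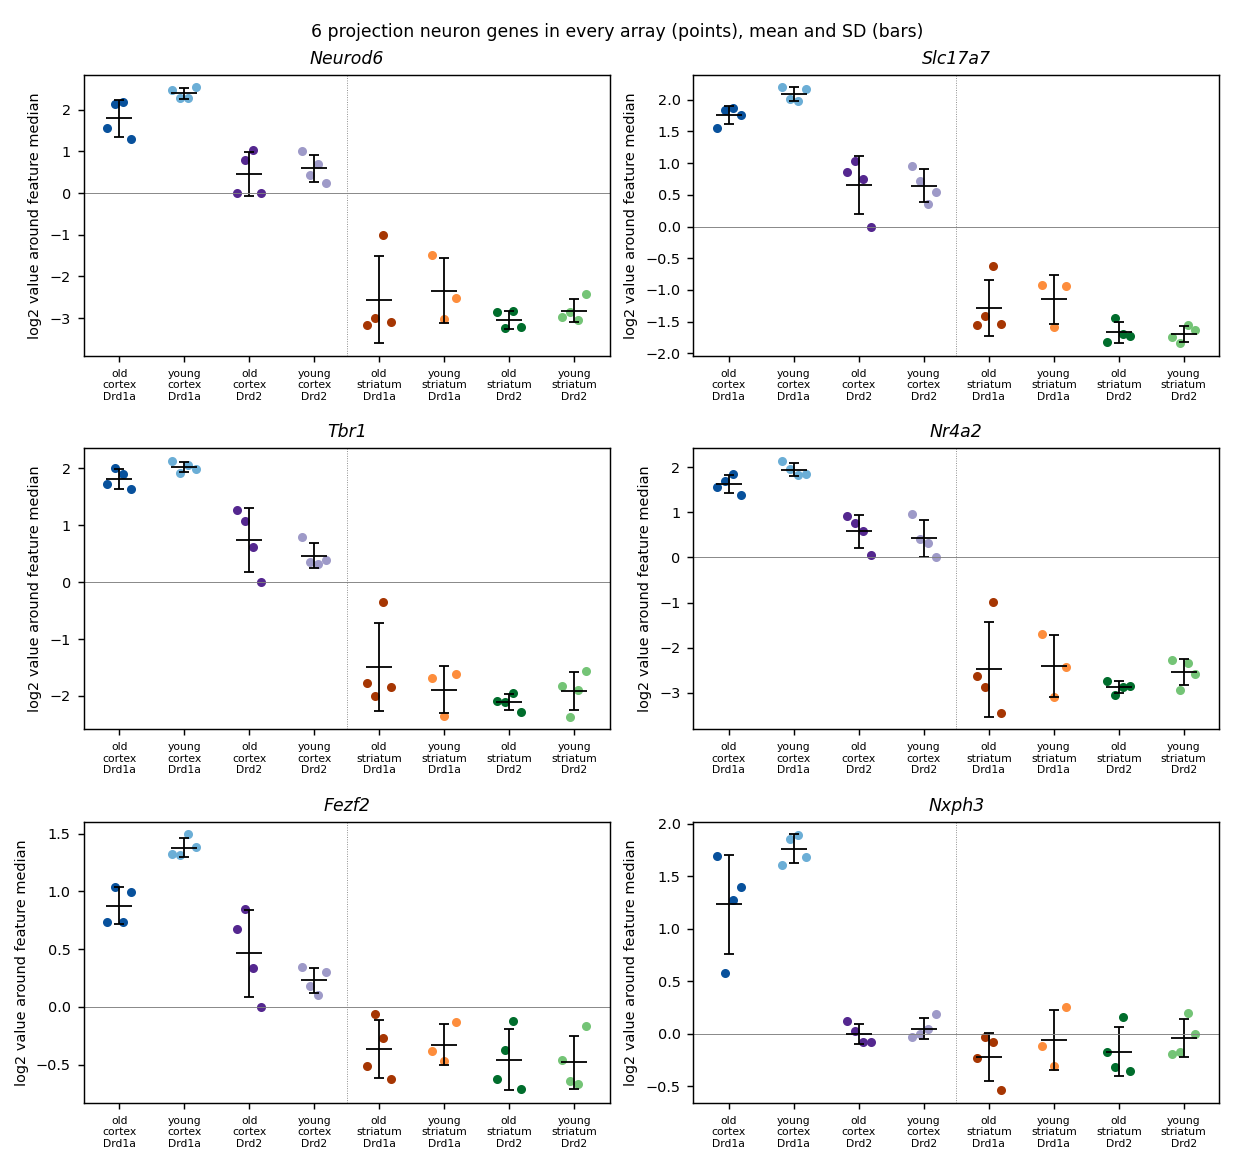
Log2 value of 6 genes around the gene's own median (y axes) in every array (points) by group (x axes), with group mean and SD (bars). Neurod6, Slc17a7, Tbr1, Nr4a2 and Fezf2 separated all cortical from all striatal arrays, while Nxph3 was high in cortex Drd1a arrays only, at 0.58 or more.

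**Figure D3:**
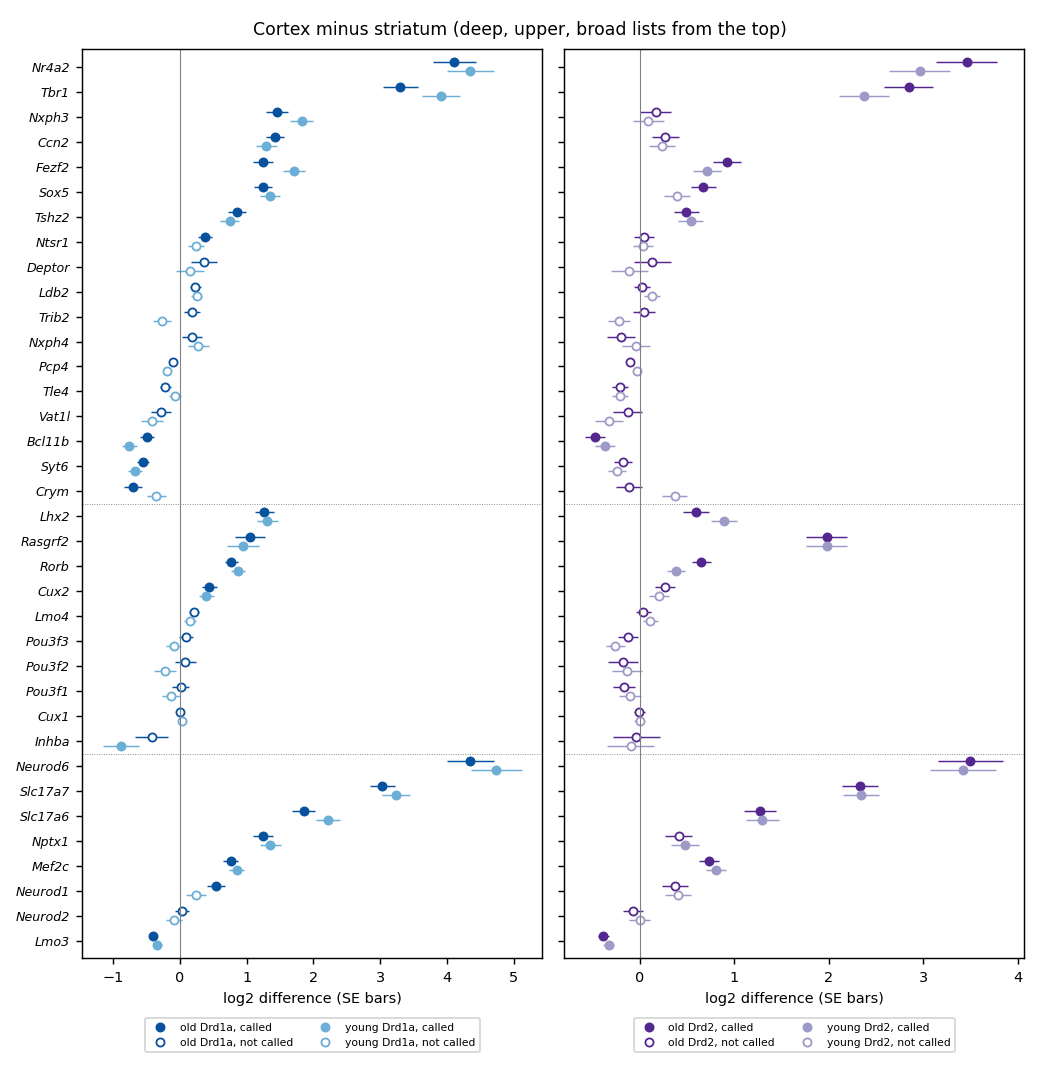
Cortex minus striatum log2 difference (x axes) with SE bars for the 36 measured members (y axis), in Drd1a cells (left) and Drd2 cells (right) at both ages, filled where called. Neurod6, Nr4a2, Tbr1 and Slc17a7 lay farthest to the right, from 2.33 to 4.74, and Bcl11b and Lmo3 lay left of 0 in all 4 comparisons.

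The 4 members with the largest regional difference in young Drd1a cells are shown here with the 250 bases before their start site (RefSeq, GRCm38.p6), because they were called higher in cortex together. Sequences read 5′ to 3′ along the gene. Capitals mark E-boxes (CANNTG, which reads the same on both strands), the binding motif of the basic helix-loop-helix class to which Neurod1, Neurod2 and Neurod6 belong. The windows are chr2:61804203-61804452 on the plus strand for Tbr1, chr2:57124004-57124253 on the minus strand for Nr4a2, chr6:55681264-55681513 on the minus strand for Neurod6 and chr7:45163671-45163920 on the plus strand for Slc17a7.
Tbr1: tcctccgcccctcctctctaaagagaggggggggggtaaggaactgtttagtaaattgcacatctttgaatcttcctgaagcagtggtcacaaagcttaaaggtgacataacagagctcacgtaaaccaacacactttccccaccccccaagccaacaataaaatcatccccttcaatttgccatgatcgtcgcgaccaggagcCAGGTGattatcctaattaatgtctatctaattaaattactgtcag
Nr4a2: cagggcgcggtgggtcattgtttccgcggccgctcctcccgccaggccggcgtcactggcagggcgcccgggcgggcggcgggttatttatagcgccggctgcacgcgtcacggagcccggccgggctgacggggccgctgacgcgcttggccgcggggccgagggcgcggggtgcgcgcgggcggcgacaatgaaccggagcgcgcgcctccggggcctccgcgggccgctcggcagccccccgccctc
Neurod6: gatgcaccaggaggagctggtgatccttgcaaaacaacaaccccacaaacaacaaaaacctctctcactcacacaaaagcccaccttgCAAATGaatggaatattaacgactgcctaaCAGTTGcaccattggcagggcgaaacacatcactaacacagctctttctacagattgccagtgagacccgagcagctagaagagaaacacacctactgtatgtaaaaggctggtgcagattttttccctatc
Slc17a7: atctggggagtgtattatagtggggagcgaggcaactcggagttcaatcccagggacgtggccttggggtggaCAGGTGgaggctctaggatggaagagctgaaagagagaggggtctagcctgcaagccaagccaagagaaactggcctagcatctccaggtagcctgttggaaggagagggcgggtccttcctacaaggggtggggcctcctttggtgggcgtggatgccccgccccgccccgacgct
Tbr1 and Slc17a7 each held 1 E-box, Neurod6 held 2 and Nr4a2 held 0, although Nr4a2 was among the most different. Of the 31 members with a window 14 had an E-box (45.2%), against 66.0% of 27025 promoters of the RefSeq table. The E-box form CAGATG was in 1 of the 31 (3.23%) and in 14.5% of all promoters, TATAAA in 3 (9.68%) and 13.0%, and the T-box motif AGGTGTGA in 1 (3.23%) and 1.14%, each searched on both strands. A match is only a run of letters, and a window without one says nothing of the factor.

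Markers of other cells moved with region as well. The 7 measured markers of striatal projection neurons, such as the phosphatase inhibitor Ppp1r1b, were all called lower in cortex in both old and young Drd1a cells, while 3 were in old and 1 in young Drd2 cells. Their mean per array ran from -0.84 to -0.53 in old cortex Drd1a and -1.36 to -0.69 in young cortex Drd1a arrays, and from -0.33 to -0.03 in old cortex Drd2 and -0.06 to 0.10 in young cortex Drd2 arrays. In striatum it ran from 0.0028 to 0.13 in old Drd1a, 0.06 to 0.13 in young Drd1a, 0.10 to 0.20 in old Drd2 and 0.14 to 0.25 in young Drd2 arrays. Of 8 astrocyte markers 7 were called higher in cortex in old and 7 in young Drd1a cells, and 6 in old and 3 in young Drd2 cells. Of 8 interneuron markers 4 were called higher and 2 lower in cortex in old Drd1a cells, 4 and 1 in young Drd1a cells and 4 and 1 in old Drd2 cells, and 5 were called higher in young Drd2 cells. Their mean per array was 0.88 to 1.03 in cortex against -0.32 to -0.05 in striatum for old Drd1a cells, and 0.77 to 1.02 against -0.66 to -0.08 for young Drd1a cells. In Drd2 cells it was 0.08 to 0.23 in cortex against -0.61 to -0.49 in striatum of old mice, and 0.09 to 0.41 against -0.68 to -0.45 of young mice. The cortex Drd1a means rested in large part on Vip. Vip read 3.399 to 4.103 in old and 3.94 to 4.33 in young cortex Drd1a arrays, and was below 0 in all striatal Drd1a arrays. The list also holds the GABA genes Gad1, Gad2 and Slc32a1. Striatal projection neurons release GABA too, so between regions the list does not read interneurons alone. The part of these shifts in the layer genes was not tested.

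The next comparison set Drd1a against Drd2 cells within the cortex. At both ages 11 members were called higher in Drd1a cells: the deep-layer genes Ccn2, Nr4a2, Nxph3, Nxph4, Sox5 and Tbr1, the upper-layer gene Lhx2, and the broad genes Neurod6, Nptx1, Slc17a6 and Slc17a7. Lower in Drd1a cells at both ages were 3 deep-layer genes, Syt6, Tle4 and Trib2. The share of all features called at both ages was not counted. In old cortex 11 members were called higher and 3 lower, where 3.82% and 2.66% of all features were. In young cortex the counts were 16 and 5, where 6.67% and 5.30% of all features were called higher and lower. Replicate 4 of old cortex Drd2 held the lowest value of its group for Neurod6, Slc17a7, Tbr1, Nr4a2 and Fezf2, and without it 8 members instead of 14 were called in old cortex. By list, 6 deep-layer, 1 upper-layer and 4 broad genes were higher in old cortex, and 9, 3 and 4 in young cortex; all of the lower calls were deep-layer genes. The median member lay at 0.22 in old and 0.18 in young cortex, against 0.06 and -0.01 for all features.

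Among genes of layer 6 and 6b the calls did not all run one way. Nxph3 had cortical values of 1.69, 0.58, 1.28 and 1.40 in old and 1.61, 1.86, 1.90 and 1.68 in young Drd1a arrays. Nxph3 in cortex Drd2 arrays read 0.12, 0.02, -0.08 and -0.08 in old and -0.04, -0.0037, 0.05 and 0.19 in young mice. Every Drd1a array lay above every Drd2 array, and the difference was 1.24 ± 0.16 at 2 years (adjusted p = 8.46e-06) and 1.71 ± 0.16 at 6 weeks (adjusted p = 1.16e-08). Ccn2 had cortical values of 1.14, 1.18, 0.87 and 1.37 in old and 1.46, 1.22, 1.28 and 1.52 in young Drd1a arrays. Ccn2 in cortex Drd2 arrays read 0.12, 0, -0.29 and -0.17 in old and 0.07, -0.04, 0.31 and -0.03 in young mice. Its Drd1a and Drd2 arrays did not overlap, and it was higher in Drd1a cells by 1.22 ± 0.14 at 2 years (adjusted p = 1.13e-06) and 1.29 ± 0.14 at 6 weeks (adjusted p = 1.46e-07). Nxph4, a second neurexophilin of layer 6b, was higher by 0.52 ± 0.15 at 2 years (adjusted p = 0.0268) and 0.52 ± 0.15 at 6 weeks (adjusted p = 0.0147). That Nxph4 call was lost at 2 years without replicates 2 or 3 of Drd2 or replicates 1 or 2 of Drd1a (adjusted p up to 0.136), and at 6 weeks without replicates 1 or 3 of Drd1a (up to 0.0611). Tbr1, with the cortical values given above, was higher by 1.07 ± 0.26 at 2 years (adjusted p = 0.00987) and 1.56 ± 0.26 at 6 weeks (adjusted p = 7.46e-05), and Nr4a2 by 1.04 ± 0.32 at 2 years (adjusted p = 0.0451) and 1.52 ± 0.32 at 6 weeks (adjusted p = 0.00121). At 2 years Tbr1 lost its call without replicate 4 of old cortex Drd2 (adjusted p = 0.0608), and Nr4a2 lost its call in 7 of 8 leave-outs (up to 0.163), the exception being replicate 1 of old cortex Drd2.

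Against these, 3 genes of the deep layers were lower in Drd1a cells. Tle4, a Groucho-family corepressor of layer 6, had cortical values of -0.19, -0.49, -0.30 and -0.32 in old and -0.21, -0.44, -0.20 and -0.08 in young Drd1a arrays. Tle4 in cortex Drd2 arrays read -0.04, 0, -0.05 and 0.21 in old and 0.16, 0.27, 0.35 and 0.16 in young mice. All Drd1a arrays were below all Drd2 arrays, with a difference of -0.35 ± 0.084 at 2 years (adjusted p = 0.00771) and -0.47 ± 0.084 at 6 weeks (adjusted p = 0.00018). Syt6 was lower, with a difference of -0.39 ± 0.095 at 2 years (adjusted p = 0.0102) and -0.47 ± 0.095 at 6 weeks (adjusted p = 0.000656), also without overlap between Drd1a and Drd2 arrays. Trib2, a pseudokinase of the Tribbles family, had cortical values of -0.35, -0.52, -0.29 and -0.35 in old and -0.32, -0.18, -0.0033 and -0.07 in young Drd1a arrays. Trib2 in cortex Drd2 arrays read -0.20, 0.33, 0 and 0.14 in old and 0.49, 0.58, 0.68 and 0.47 in young mice. Within each age its Drd1a arrays lay below its Drd2 arrays, with a difference of -0.45 ± 0.12 at 2 years (adjusted p = 0.0183) and -0.70 ± 0.12 at 6 weeks (adjusted p = 8.74e-05). The call at 2 years was lost without replicates 2 or 4 of old cortex Drd2 or replicate 2 of old cortex Drd1a (adjusted p up to 0.099).

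The layer 5 genes Fezf2, Bcl11b and Vat1l were called in young cortex and not in old cortex. Fezf2 differed by 0.41 ± 0.15 at 2 years (adjusted p = 0.1) and 1.15 ± 0.15 at 6 weeks (adjusted p = 2.49e-06). Bcl11b differed by -0.33 ± 0.10 at 2 years (adjusted p = 0.0504) and -0.79 ± 0.10 at 6 weeks (adjusted p = 2.62e-06). Vat1l, a marker of layer 5 neurons that project outside the telencephalon, differed by -0.41 ± 0.15 at 2 years (adjusted p = 0.102) and -0.94 ± 0.15 at 6 weeks (adjusted p = 3.53e-05). Whether these differences changed with age was tested by the interaction given with the age results, which called 0 members. Sox5 was higher in Drd1a cells by 0.57 ± 0.14 at 2 years (adjusted p = 0.00857) and 1.02 ± 0.14 at 6 weeks (adjusted p = 2.94e-06), with its call at 2 years lost without replicate 4 of old cortex Drd2 (adjusted p = 0.0521). Ntsr1 (0.31 ± 0.11) and Ldb2 (0.37 ± 0.081), a LIM-domain-binding cofactor, were called at 6 weeks only, Ntsr1 at an adjusted p of 0.0495 that 6 of 8 leave-outs raised above the threshold (up to 0.177).

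Of the 8 broad genes 4 were called higher in cortical Drd1a cells at both ages: Neurod6, Nptx1, Slc17a6 and Slc17a7. Slc17a7 was higher by 1.10 ± 0.19 at 2 years (adjusted p = 0.000361) and 1.44 ± 0.19 at 6 weeks (adjusted p = 2.61e-06), or 2.14- and 2.72-fold. Neurod6 was higher by 1.33 ± 0.35 at 2 years (adjusted p = 0.0166) and 1.80 ± 0.35 at 6 weeks (adjusted p = 0.000444), and its call at 2 years was lost without replicate 4 of old cortex Drd2 or replicates 2 or 3 of old cortex Drd1a (adjusted p up to 0.0679). Slc17a6 was higher by 0.69 ± 0.17 at 2 years (adjusted p = 0.0113) and 1.04 ± 0.17 at 6 weeks (adjusted p = 6.03e-05), the call at 2 years being lost without replicate 3 of either old cortex group (adjusted p up to 0.0661). For Neurod6 and Slc17a7 every Drd1a array exceeded every Drd2 array of the cortex, whereas Slc17a6 overlapped at 2 years. Nptx1 had cortical values of 0.83, 1.21, 1.15 and 1.34 in old and 1.43, 0.86, 1.04 and 0.88 in young Drd1a arrays. Nptx1 in cortex Drd2 arrays read 0.36, 0.54, 0.22 and 0.02 in old and 0, 0.01, -0.01 and 0.0021 in young mice. The Drd1a arrays stood apart from the Drd2 arrays, and the difference was 0.84 ± 0.14 at 2 years (adjusted p = 0.000306) and 1.05 ± 0.14 at 6 weeks (adjusted p = 4.78e-06). Neurod1, Neurod2, Mef2c and Lmo3 were called at neither age.

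Of the 10 upper-layer genes 1 was called higher in Drd1a cells of old cortex and 3 of young cortex, where 3.82% and 6.67% of all features were. Lhx2 was higher in Drd1a cells by 0.51 ± 0.14 at 2 years (adjusted p = 0.0228) and 0.45 ± 0.14 at 6 weeks (adjusted p = 0.0291), and the calls were lost in 2 of 8 leave-outs at 2 years (replicate 4 of Drd2 or 3 of Drd1a, adjusted p up to 0.102) and in 5 of 8 at 6 weeks (replicates 1 or 3 of Drd2 or 1, 2 or 3 of Drd1a, up to 0.112). Rorb was called at 6 weeks (0.51 ± 0.098) and stood at 0.14 ± 0.098 at 2 years, and Lmo4, a LIM-only factor, was called at 6 weeks (0.27 ± 0.08) and stood at 0.24 ± 0.08 at 2 years. The Lmo4 call was lost without replicate 1 of young cortex Drd2 or replicates 1 or 3 of young cortex Drd1a (adjusted p up to 0.084). The other 7 upper-layer genes, Cux1, Cux2, Inhba, Pou3f1, Pou3f2, Pou3f3 and Rasgrf2, were called at neither age.

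Marker lists of other cells differed between the same arrays. Of the 7 markers of striatal projection neurons 6 were called lower in Drd1a cells of old cortex and 7 in young cortex. Of 8 astrocyte markers 2 were called higher in Drd1a cells of old cortex and 6 in young cortex, with means per array of 0.62 to 1.07 in old Drd1a against 0.19 to 1.005 in old Drd2 arrays, and 0.43 to 0.82 in young Drd1a against -0.19 to 0.12 in young Drd2 arrays. The interneuron list ran from 0.88 to 1.03 in old Drd1a against 0.08 to 0.23 in old Drd2 arrays, and from 0.77 to 1.02 in young Drd1a against 0.09 to 0.41 in young Drd2 arrays. Of its 8 genes 3 were called higher in Drd1a cells of old cortex, and 2 higher and 2 lower in young cortex. Vip, a peptide of one interneuron class, was higher by 3.38 ± 0.13 at 2 years and 3.96 ± 0.13 at 6 weeks, whereas Gad1, the GABA-producing enzyme of all interneurons, stood at -0.19 ± 0.092 at 2 years (adjusted p = 0.257) and was called lower at 6 weeks, at -0.63 ± 0.092. The part of these lists in the layer gene differences was not tested.

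**Figure D4:**
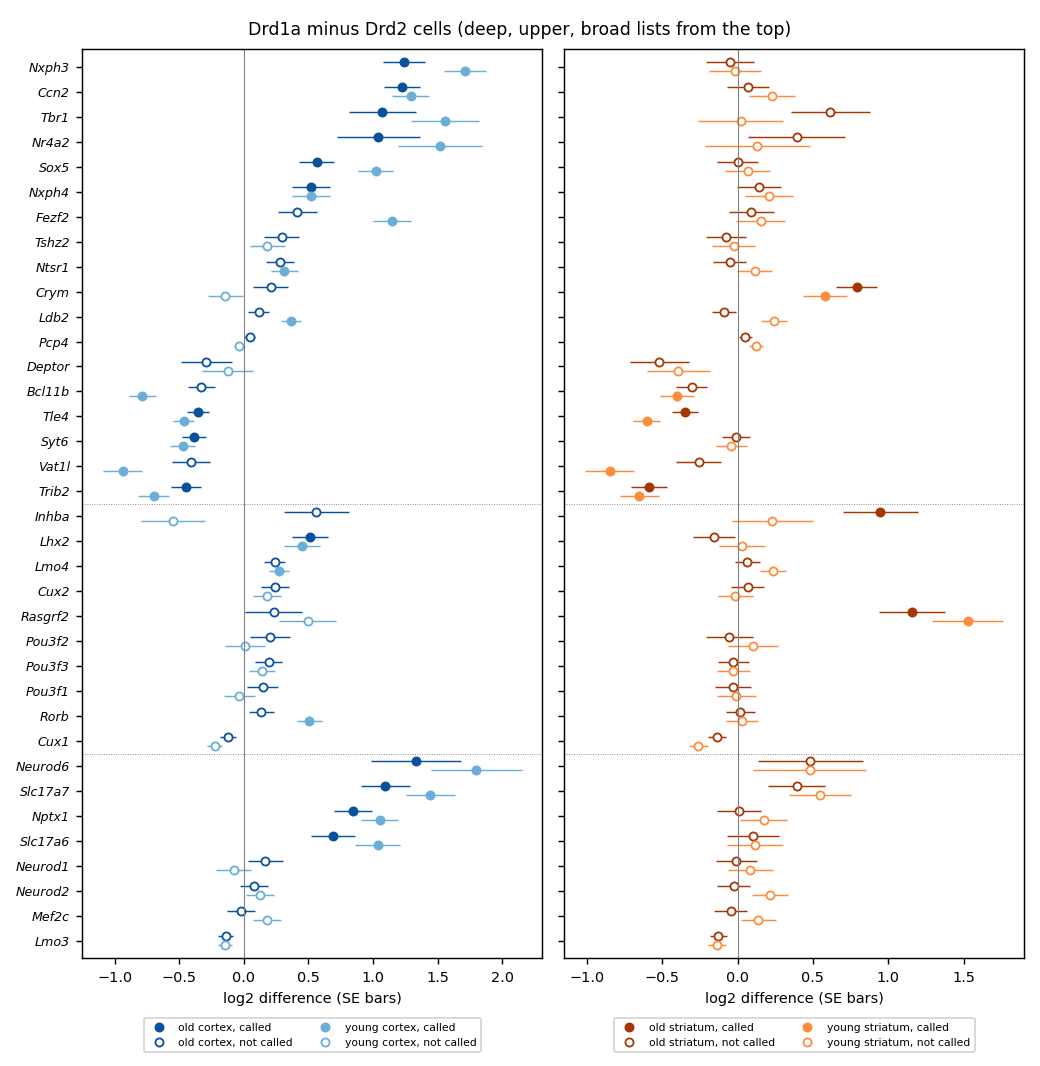
Drd1a minus Drd2 log2 difference (x axes) with SE bars for the 36 measured members (y axis), in cortex (left) and striatum (right) at both ages, filled where called. In cortex Nxph3, Ccn2, Tbr1, Nr4a2, Neurod6 and Slc17a7 lay to the right at 1.04 or more at both ages. In striatum Rasgrf2 lay farthest right, at 1.16 at 2 years and 1.53 at 6 weeks.

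Between Drd1a and Drd2 cells of striatum 5 members were called at 2 years and 6 at 6 weeks. Crym and Rasgrf2 were called higher and Tle4 and Trib2 lower in Drd1a cells at both ages. In old striatum 3 members were called higher and 2 lower, where 1.63% and 1.18% of all features were. In young striatum the counts were 2 and 4, where 1.68% and 1.37% of all features were called higher and lower. Rasgrf2, whose striatal values are given above, was higher in every Drd1a array than in any Drd2 array, by 1.16 ± 0.22 at 2 years (adjusted p = 0.00144) and 1.53 ± 0.24 at 6 weeks (adjusted p = 0.000127), or 2.23- and 2.88-fold. Crym had striatal values of 0.94, 0.78, 0.51 and 0.95 in old and 0.05, 0.42 and 0.10 in young Drd1a arrays. Crym in striatum Drd2 arrays read -0.18, -0.07, 0.22 and 0.04 in old and -0.23, -0.46, -0.34 and -0.53 in young mice. The Drd1a arrays were above the Drd2 arrays within each age, by 0.79 ± 0.14 at 2 years (adjusted p = 0.000428) and 0.58 ± 0.15 at 6 weeks (adjusted p = 0.0225), and the call at 6 weeks was lost without replicates 2 or 4 of Drd2 or replicate 2 of Drd1a (adjusted p up to 0.142). Tle4 had striatal values of -0.19, -0.02, 0.01 and -0.23 in old and -0.29, 0.03 and -0.21 in young Drd1a arrays. Tle4 in striatum Drd2 arrays read 0.27, 0.33, 0.13 and 0.24 in old and 0.41, 0.44, 0.52 and 0.41 in young mice. All its Drd1a arrays lay below all its Drd2 arrays, with a difference of -0.35 ± 0.084 at 2 years (adjusted p = 0.0148) and -0.60 ± 0.09 at 6 weeks (adjusted p = 7.67e-05), with the call at 2 years lost without replicate 2 of Drd2 or replicates 1 or 4 of Drd1a (adjusted p up to 0.0734). Trib2 had striatal values of -0.64, -0.34, -0.65 and -0.63 in old and 0.25, 0.07 and 0.04 in young Drd1a arrays. Trib2 in striatum Drd2 arrays read -0.32, 0.28, 0.14 and -0.0014 in old and 0.83, 1.05, 0.69 and 0.52 in young mice. Within each age its Drd1a arrays lay below its Drd2 arrays, with a difference of -0.59 ± 0.12 at 2 years (adjusted p = 0.00292) and -0.65 ± 0.13 at 6 weeks (adjusted p = 0.00213). Tle4 and Trib2 were the only members of the 36 called in the same direction in all 4 cell type comparisons. The share of all features called at both ages, or in all 4 comparisons, was not counted.

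The remaining calls in striatum held at 1 age. Inhba was higher in old Drd1a cells (0.95 ± 0.25, adjusted p = 0.0312), with values of 0.74, 0.36, 0.64 and 0.23 in Drd1a against -1.23, 0.06, -0.44 and -0.20 in Drd2 arrays. Its Drd2 arrays were widely spread, and the call was lost without replicates 1 or 3 of Drd2 or replicates 1 or 3 of Drd1a (adjusted p up to 0.157). Vat1l was lower in young Drd1a cells (-0.85 ± 0.16), with values of -0.37, 0.04 and -0.31 in Drd1a against 0.43, 0.75, 0.70 and 0.67 in Drd2 arrays, and stood at -0.26 ± 0.15 at 2 years. Bcl11b was lower in young Drd1a cells (-0.40 ± 0.11, adjusted p = 0.0447), with values of -0.02, -0.04 and 0.21 in Drd1a against 0.36, 0.45, 0.45 and 0.54 in Drd2 arrays. The groups did not overlap, but leaving out any 1 of 6 of the 7 arrays, all but replicate 3 of Drd1a, lost the Bcl11b call (adjusted p up to 0.202). Neurod6, Tbr1 and Slc17a7 were not called between the cell types of striatum. At 2 years Neurod6 stood at 0.48 ± 0.35, Tbr1 at 0.61 ± 0.26 and Slc17a7 at 0.39 ± 0.19 (adjusted p = 0.742, 0.304 and 0.423), and without replicate 3 of old striatum Drd1a at -0.04 ± 0.28, 0.23 ± 0.21 and 0.17 ± 0.18. At 6 weeks they stood at 0.48 ± 0.38, 0.02 ± 0.28 and 0.54 ± 0.21 (adjusted p = 0.79, 1 and 0.187).

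Marker lists of other cells were read in the same striatal arrays. Of 8 interneuron markers 3 were called higher in Drd1a cells of old striatum and 1 lower in young striatum, and their mean per array was -0.32 to -0.05 in old Drd1a against -0.61 to -0.49 in old Drd2 arrays, and -0.66 to -0.08 in young Drd1a against -0.68 to -0.45 in young Drd2 arrays. The oligodendrocyte mean was -0.18 to 0.02 in old Drd1a against 0.18 to 0.33 in old Drd2 arrays, without overlap, and -0.35 to 0.42 in young Drd1a against -0.19 to 0.15 in young Drd2 arrays. Of the 7 markers of striatal projection neurons 1 was called lower in Drd1a cells at each age. The interneuron list holds Gad1, Gad2 and Slc32a1, and striatal projection neurons release GABA too, so in striatum it does not read interneurons alone. The part of these lists in the striatal differences was not tested.

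Whether the cell type difference itself differed between cortex and striatum was tested as an interaction. In old mice 3 members had a larger Drd1a minus Drd2 difference in cortex, where 0.844% and 0.557% of all features were called larger and smaller. With array weights the old-mouse test called 14 members, 12 larger and 2 smaller, and without the arrays of median over 0.05 it called 5. The percentages above are of the main fit, and the shares of all features in these other runs are not given here. In young mice 7 had a larger and 1 a smaller difference, where 1.73% and 1.59% of all features did. The differences of these differences for Nxph3 (1.29 ± 0.23 in old and 1.73 ± 0.24 in young mice), Ccn2 (1.15 ± 0.20 and 1.06 ± 0.21) and Nptx1 (0.83 ± 0.20 and 0.88 ± 0.21) were called at both ages. The Nptx1 interaction in old mice (adjusted p = 0.034) was lost in 11 of 16 leave-outs, among them the one without replicate 3 of old striatum Drd1a. Its call in young mice was lost in 2 of 15 (replicate 1 of young cortex Drd1a or 2 of young striatum Drd1a, adjusted p up to 0.0822). In young mice Tbr1 (1.54 ± 0.38), Fezf2 (0.99 ± 0.22), Sox5 (0.96 ± 0.20) and Slc17a6 (0.92 ± 0.25) also had the larger difference in cortex. Crym had the smaller one (-0.72 ± 0.20), being higher in Drd1a cells of striatum but not called in cortex. Without 1 array, Tbr1 was lost in 1 of 15 leave-outs (replicate 2 of young striatum Drd1a, adjusted p = 0.0891), and Slc17a6 and Crym in 10 of 15 each (up to 0.126 and 0.146). No upper-layer gene was called in either interaction.

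Between 2 years and 6 weeks, the comparison for which the series' design text sets its thresholds, few of the layer genes and few of all features were called. Of the 36 members 3 were called in any of the 4 age comparisons, all of them deep-layer genes: Trib2, Crym and Ldb2. How many of all features were called in any of the 4 was not counted. In cortex Drd1a cells limma called 0 members, where 0.453% of all features were called. In cortex Drd2 cells it called 1 lower and 0 higher, where 1.78% and 1.85% of all features were. In striatum Drd1a cells 1 member rose and 1 fell, beside 1.58% and 1.85% of all features, and in striatum Drd2 cells 1 rose and 1 fell, beside 2.72% and 2.98%. The median change of the members was -0.02, -0.03, -0.06 and -0.02 in these 4 comparisons, in the same order, and that of all features 0.04, -0.02, -0.05 and -0.01. At an unadjusted p under 0.05 there were 5, 7, 5 and 8 members. The share of all features under that limit was not counted, so no excess can be read from these counts. The 5 in cortex Drd1a cells, named after their values were seen, were Fezf2 (-0.50 ± 0.15), Nxph3 (-0.53 ± 0.16), Slc17a6 (-0.37 ± 0.17), Bcl11b (0.30 ± 0.10) and Cux1 (0.18 ± 0.06), with adjusted p from 0.148 to 0.495.

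Trib2 fell in 3 of the 4 comparisons. In striatum Drd2 arrays it read -0.32, 0.28, 0.14 and -0.0014 in old mice, against 0.83, 1.05, 0.69 and 0.52 in young mice. In striatum Drd1a arrays it read -0.64, -0.34, -0.65 and -0.63 in old mice, against 0.25, 0.07 and 0.04 in young mice. The ages did not overlap in either cell type. The change was -0.75 ± 0.12 in striatum Drd2 cells (1.68-fold lower, adjusted p = 0.000179), -0.69 ± 0.13 in striatum Drd1a cells (1.61-fold, adjusted p = 0.0026) and -0.49 ± 0.12 in cortex Drd2 cells (1.4-fold, adjusted p = 0.0185). In cortex Drd1a cells Trib2 stood at -0.23 ± 0.12 (adjusted p = 0.566). The cortex Drd2 call was lost without replicates 2 or 3 of young cortex Drd2 or replicate 1 of old cortex Drd2 (adjusted p up to 0.114), while both striatal calls held whichever array was left out.

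Crym rose in striatum Drd1a cells, with the striatal values given above: old and young Drd1a arrays did not overlap, and the change was 0.61 ± 0.15 (1.52-fold, adjusted p = 0.0173). Its call was lost without replicates 1 or 3 of young striatum Drd1a or replicate 1 of old striatum Drd1a (adjusted p up to 0.126). Without replicate 3 of old striatum Drd1a the count in striatum Drd1a cells was still 2. In the other comparisons Crym stood at 0.39 ± 0.14 in striatum Drd2, 0.26 ± 0.14 in cortex Drd1a and -0.09 ± 0.14 in cortex Drd2 cells. Ldb2 rose in striatum Drd2 cells, where it read 0.09, -0.08, 0.08 and -0.10 in old mice, against -0.30, -0.45, -0.32 and -0.29 in young mice. All old arrays were above all young ones, and the change was 0.34 ± 0.081 (1.26-fold, adjusted p = 0.00925), a call kept whichever array was left out. Ldb2 stood at 0.23 ± 0.081 in cortex Drd2, 0.01 ± 0.088 in striatum Drd1a and -0.02 ± 0.081 in cortex Drd1a cells.

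The 33 members called in no age comparison included all 10 upper-layer and all 8 broad genes. Upper-layer genes spanned -0.16 to 0.49 in cortex Drd1a, -0.62 to 0.64 in cortex Drd2, -0.30 to 0.27 in striatum Drd1a and -0.68 to 0.64 in striatum Drd2 cells. The broad genes spanned -0.60 to 0.21 in cortex Drd1a, -0.13 to 0.29 in cortex Drd2, -0.21 to 0.19 in striatum Drd1a and -0.22 to 0.35 in striatum Drd2 cells. Without replicate 3 of old striatum Drd1a, Neurod6 stood at -0.73 ± 0.30, Slc17a7 at -0.35 ± 0.19 and the deep-layer gene Nr4a2 at -0.57 ± 0.26 in striatum Drd1a cells (adjusted p = 0.248, 0.481 and 0.351), against -0.21 ± 0.38, -0.13 ± 0.21 and -0.08 ± 0.35 with it. A miss of the threshold does not show that a gene held its level. Tests of whether the age change differed between cortex and striatum called 0 members (limma, adjusted p), where 0% of all features were called in Drd1a and 0.0184% in Drd2 cells. Tests of whether it differed between Drd1a and Drd2 cells also called 0 members, where 0.104% of all features were called in cortex and 0.0734% in striatum. At an unadjusted p under 0.05 these 4 tests gave 2, 1, 8 and 3 members in the same order. Here too the share of all features under that limit was not counted. In the same Drd2 arrays 3 of 5 direct-pathway markers were called higher at 2 years in cortex and 4 of 5 in striatum, and of 8 astrocyte markers 3 in cortex and 4 in striatum. The direct-pathway mean per array was -0.32 to -0.07 in old against -1.69 to -1.34 in young striatum Drd2 arrays, and the part of this in the layer genes was not tested.

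**Figure D5:**
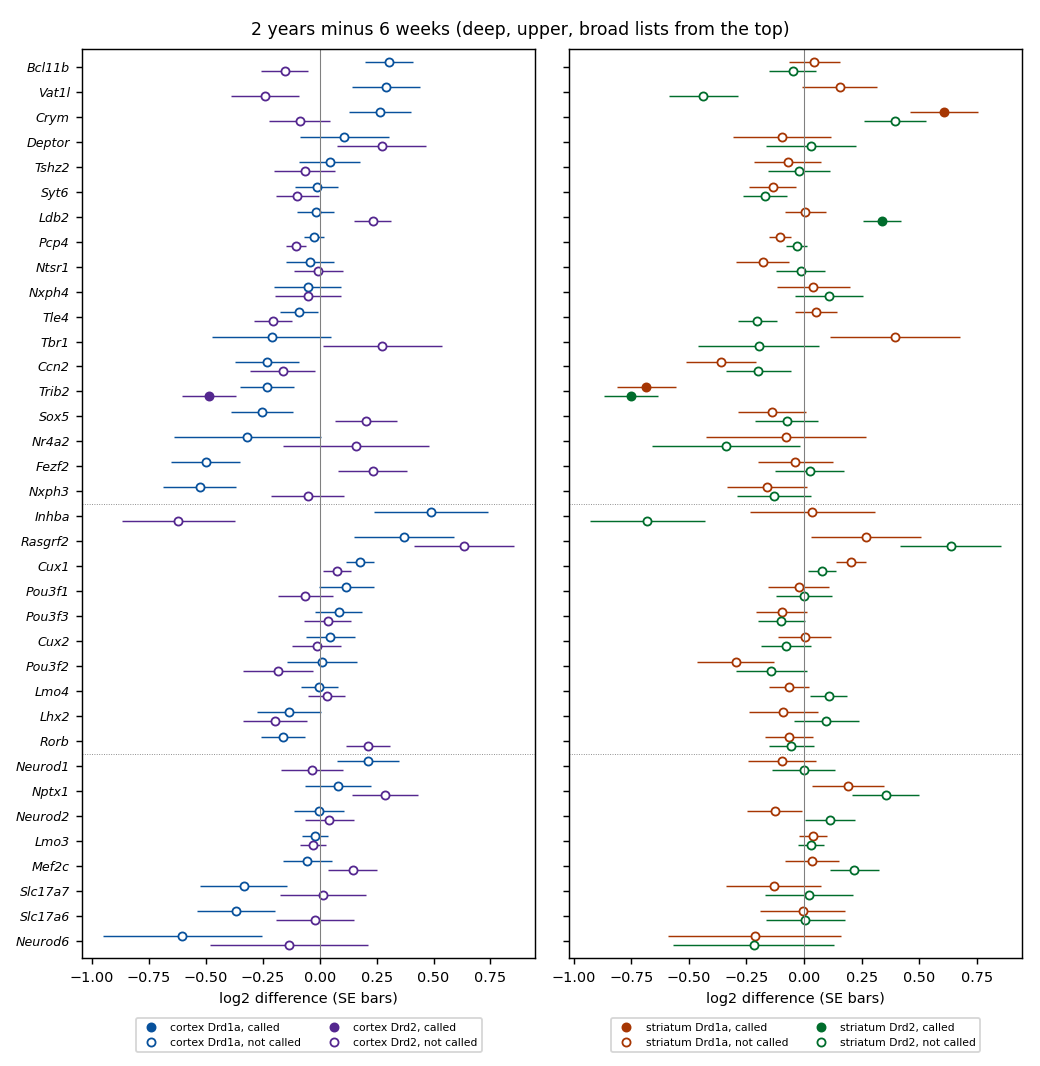
Age change, 2 years minus 6 weeks, as log2 difference (x axes) with SE bars for the 36 measured members (y axis), in cortex (left) and striatum (right) for both cell types, filled where called. Trib2, Crym and Ldb2 are the only members with filled points, and Trib2 lay left of 0 in all 4 comparisons, at -0.75 in striatum Drd2 cells.

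A list of 27 other layer genes, 22 of them measured, was read in the same way. Between cortex and striatum 9 were called higher and 3 lower in old Drd1a cells, 8 and 3 in young Drd1a, 6 and 2 in old Drd2, and 5 and 2 in young Drd2 cells. Of all features 8.80% and 7.32% were called higher and lower in old Drd1a, and 9.10% and 9.94% in young Drd1a cells. In Drd2 cells the shares were 6.31% and 5.04% in old and 4.57% and 3.01% in young mice. Among the 22, the largest in old Drd1a cells were Id2 (2.90 ± 0.21), Slc30a3 (1.82 ± 0.16) and Dkk3 (1.45 ± 0.14). In young Drd1a cells they were Id2 (3.13 ± 0.23), Tox (2.20 ± 0.18) and Dkk3 (1.78 ± 0.15). Id2 is a helix-loop-helix inhibitor, Slc30a3 the zinc transporter of glutamatergic vesicles and Dkk3 a secreted protein of the Dickkopf family. Between Drd1a and Drd2 cells 6 were higher and 2 lower in old cortex, 9 and 2 in young cortex, 3 and 1 in old striatum, and 2 and 1 in young striatum. Of all features 3.82% and 2.66% were called higher and lower in old cortex, and 6.67% and 5.30% in young cortex. In striatum the shares were 1.63% and 1.18% in old and 1.68% and 1.37% in young mice. Among the 22, the largest in young cortex were Id2 (1.56 ± 0.21), Dkk3 (1.45 ± 0.14) and Kcnk2 (-1.23 ± 0.12). In old cortex they were Id2 (1.08 ± 0.21), Kcnk2 (-0.95 ± 0.12) and Dkk3 (0.87 ± 0.14). With age, 0 of the 22 were called in cortex Drd1a cells by limma (3 at an unadjusted p under 0.05), 1 rose in cortex Drd2, 1 rose and 1 fell in striatum Drd1a, and 1 rose in striatum Drd2 cells. Of all features 0.453% were called in cortex Drd1a cells. Called higher and lower were 1.85% and 1.78% in cortex Drd2, 1.58% and 1.85% in striatum Drd1a, and 2.72% and 2.98% in striatum Drd2 cells. Foxp2, a forkhead factor of layer 6 that is also strong in striatum, was the gene that rose in both kinds of Drd2 cells, by 0.89 ± 0.10 in cortex and 0.91 ± 0.10 in striatum. In young striatum Foxp2 read 0.44 to 0.60 in Drd1a against -0.69 to -0.44 in Drd2 arrays. In young cortex it read -0.54 to 0.08 against -1.23 to -1.01. Drd1 also lay higher in old than in young Drd2 arrays, as given above, and its part in the Foxp2 rise was not tested. In striatum Drd1a cells Tox rose (0.88 ± 0.18) and Kcnk2 fell (-0.52 ± 0.13).

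Over the 12 comparisons of 2 groups, 29 of the 36 members were called at least once. The share of all features called at least once was not counted, so the tallies here cannot set the members apart from other genes. Trib2 was called in 7 of the 12, and Bcl11b, Lhx2, Neurod6, Nr4a2, Rasgrf2, Slc17a6, Slc17a7 and Tbr1 in 6 each. The 7 called in none were the deep-layer genes Deptor and Pcp4, the upper-layer genes Cux1, Pou3f1, Pou3f2 and Pou3f3, and the broad gene Neurod2, with differences of at most 0.52 in size.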

How the data were processed

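Per the labels' protocols, TRAP RNA was labelled with the Encore Biotin Module and hybridised to mouse exon arrays. The authors deposited log2 values, for which the submitters' processing notes name RMA (robust multi-array averaging) and mm8. Versions: not given in the sources used here. That the logarithm has base 2 follows from RMA. Each gene is centred on its own median by the authors' deposited table (0 within 1e-06 for 16341 of 16345 features), so depth and signal over background are unknown and the number of arrays limits the precision. In 3 deposited columns, recorded as unit other, 1 value each had no decimal point and lay far outside the range of the others, and was set missing along with 1 empty cell; none was in a member. Features were named through the platform's table: 14793 carried 1 symbol, 814 several and 738 were not listed. No deposited sample column was left unmapped.

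Groups came from the labels. limma 3.58.1 in R 4.3.3 modelled the 8 group means over the 31 arrays at once, leaving 23 residual degrees of freedom (prior 4.68, residual SD 0.126), and 18 comparisons were tested two-sided, each with Benjamini-Hochberg adjustment over 16345 features. The fit was also run on simulated data with independent normal noise of the model's own spread. Such data meet the model's assumptions, so they cannot show that it suits these arrays. Members and lists were chosen with earlier results of these data known. Every called member could be named; those with the largest changes have array values, and uncalled members are named where another comparison called them. Cux1 and the 6 other members called in no comparison fall outside this rule and were named after their values were seen. Up to 3 called genes of the other layer list were named per comparison. Promoter windows are the 250 bases before the start in RefSeq (GRCm38.p6), with chromosome 18 left out. Alternatives were array centring, only the groups compared, replicate blocks, array weights, trended robust moderation, other folds, and leaving out arrays. Unpurified RNA was not analysed here.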

Additional observations from a re-analysis of the deposited data

Results flagged for a closer look

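In 252 sets of 1 member in 1 group of 4 arrays, 13 had an array far from the others by Dixon's test, where about 1 set in 20 is picked out by chance, or 12.6 sets. Replicate 3 of old striatum Drd1a held 3 of the 13, with Tbr1 at -0.34, Neurod6 at -0.997 and Slc17a7 at -0.63, each above the other 3 arrays of its group. Replicate 2 of the same group held Trib2 at -0.34 and Pou3f1 at 0.54. In cortex Drd1a arrays Cux1 stood apart in old replicate 2, at -0.13. In cortex Drd2 arrays Bcl11b stood apart in old replicate 2, at 0, and Tbr1 in young replicate 1, at 0.79, and Rorb in young replicate 2, at 0. In young striatum Drd2 arrays the values were -0.047 for Syt6 in replicate 3, 0.31 for Nxph4 and -0.080 for Nptx1 in replicate 4, and 0.36 for Lmo3 in replicate 1. What set these arrays apart was not tested.

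The Drd1a minus Drd2 difference was called as unlike in cortex and striatum for 11 combinations of member and age (cortex minus striatum, limma, adjusted p). At 2 years these were Nxph3 at 1.29, Ccn2 at 1.15 and Nptx1 at 0.83. At 6 weeks they were Nxph3 at 1.73, Tbr1 at 1.54, Ccn2 at 1.06, Fezf2 at 0.99, Sox5 at 0.96, Slc17a6 at 0.92, Nptx1 at 0.88 and Crym at -0.72.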

How the results depend on the processing

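None of the 132 calls of a member changed direction under any alternative run. Of the 132, 103 held whichever array was left out, and 29 were lost without at least 1 array. The calls lost were 1 with arrays centred on their medians, 12 with only the groups compared in the fit, 0 with array weights, 2 with trended robust moderation, 35 at 1.5-fold, 0 without a fold limit and 10 without the 6 arrays whose median exceeded 0.05. The causes were not tested, save that the 1.5-fold limit can only remove calls and dropping the limit can remove none. These 2 settings use the main fit, so they cannot change a direction either. Fits on fewer arrays could also add calls.

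With only the groups compared, the number of members called was 0 for age in cortex Drd2, 1 for age in striatum Drd1a and 2 for cell type in old striatum, against 1, 2 and 5. With array weights it was 2 for age in cortex Drd1a, 4 for age in striatum Drd2 and 14 for cell type by region in old mice, against 0, 2 and 3. At 1.5-fold it was 0 for age in cortex Drd2, 1 for age in striatum Drd2, 9 for region in young Drd2, 13 for cell type in young cortex and 8 for cell type in old cortex, against 1, 2, 14, 21 and 14. Without the arrays of median over 0.05 it was 0 for age in cortex Drd2, 1 for age in striatum Drd1a and 5 for cell type by region in old mice, against 1, 2 and 3. Shares of all features called in these runs are not given here.

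Leaving out each array in turn gave 0 to 2 members for age in cortex Drd2, 1 to 3 in striatum Drd1a and 2 to 4 in striatum Drd2. It gave 8 to 14 for cell type in old cortex, the lowest without replicate 4 of old cortex Drd2, and 3 to 7 in old striatum, and 4 to 8 for cell type by region in young mice. Without replicate 3 of old striatum Drd1a the region comparison of old Drd1a cells called 23 members, Ldb2 being added to the 22.

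Replicate numbers did not meet the rule for pairing, a correlation over 0.1 in every pair. Same-numbered arrays correlated at over 0.1 in 3 of 15 pairs of cortex with striatum, 7 of 15 of Drd1a with Drd2 and 3 of 15 of old with young. Of the 15 pairs of each kind, 5, 6 and 3 had the second-named array as the best match of the first within its group. The reverse match was not read. In young cortex the same-numbered Drd2 array was the best match of each of the 4 Drd1a arrays (r = 0.18, 0.014, 0.057 and 0.17). This is a hint from the data and not from the design. With the number as a fixed replicate block 3 calls were lost, Ntsr1 between cell types in young cortex (adjusted p = 0.056) and, in the test of cell type by region, Crym in young (adjusted p = 0.0535) and Nptx1 in old mice (adjusted p = 0.0503). With a random replicate block 2 calls were lost. No member had a second feature, so the alternative of the next feature number gave no value.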

Other observations

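Markers of cells that are neither layer neurons nor striatal projection neurons were measured in the same arrays. Of 8 oligodendrocyte markers 2 were called higher at 2 years in cortex Drd2 cells, 1 in cortex Drd1a and 1 in striatum Drd2 cells (limma, adjusted p). Trf, which encodes the iron carrier transferrin and is strong in oligodendrocytes, was higher by 2.20 ± 0.26 in cortex Drd2, 1.53 ± 0.26 in striatum Drd2 and 1.38 ± 0.26 in cortex Drd1a cells. The mean of the 8 per array was 0.01 to 0.59 in old against -0.18 to 2.3e-06 in young cortex Drd2 arrays. This mean includes Trf and was not read without it. The genes of the list did not all move alike in these arrays. Mobp read 0.31, 0, 0.18 and -0.02 in old against 0.32, -0.06, 0.17 and 0.32 in young mice. Mag read 0.79, 0.47, 0.71 and 0.05 in old against -0.10, -0.08, -0.03 and -0.02 in young mice. The means of 8 microglia and of 3 endothelial markers lay between -0.22 and 0.31 in all 31 arrays. The 3 measured indirect-pathway markers were called lower in Drd1a than in Drd2 cells in all 4 cell type comparisons.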
